A study of Mus musculus with 6 samples.

Results

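The genes described here encode 8 membrane pumps of the ATP-binding cassette (ABC) class that carry drugs and conjugated metabolites out of cells: Abcc1, Abcc3, Abcc4, Abcc5, Abcc10, Abcb1a, Abcb1b and Abcg2. They were chosen by symbol, with earlier results of these data known, and all 8 were found among the 16426 genes of the deposited table. Their mRNA was measured in the mouse mammary carcinoma line 4T1-LM3, kept in conditioned medium (CM), which holds what other cells have released. A total of 3 samples received Control CM, whose source the labels do not name, and 3 received Tdo2high MFs CM. That medium came from matrix fibroblasts (MFs) high in Tdo2, the gene of an enzyme that starts the breakdown of tryptophan to kynurenine. All samples were the same line in some conditioned medium, and none was labelled as unexposed or as given kynurenine, so the effect of Tdo2 cannot be told apart from that of other differences between the media. The labels do not say whether samples of a group were separate cultures, and p-values then cover only the differences among these samples, possibly of technical origin.

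ABC exporters bind and split ATP and use the energy to move a substrate across the membrane. The ABCC proteins, also called multidrug resistance proteins (MRPs), export organic anions, among them molecules that glutathione transferases or glucuronosyltransferases have tagged with glutathione or glucuronic acid. P-glycoprotein, made in mice by Abcb1a and Abcb1b, expels uncharged or positively charged drugs, and the breast cancer resistance protein made by Abcg2 has an overlapping range of substrates. In tumor cells these pumps are best known for lowering the amount of chemotherapy drug that stays inside.

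Levels are given as FPKM (fragments scaled by the length of the transcript and the size of the library), which can be set side by side between genes. Changes are differences in log2(FPKM + 1), Tdo2high MFs CM minus Control CM, which understate the change of weakly expressed genes. Of 16426 genes, 10804 had at least 1 FPKM in at least 3 libraries and were tested by limma, and p-values were adjusted over all of them with a threshold of 0.05. FPKM summed to between 438603 and 447415 per library; the read depth is unknown. As background for the counts of called genes, 3.35% of tested genes were called higher and 4.06% lower, or 7.41% either way. At an unadjusted p under 0.05, which is given beside some counts, the shares were 9.68% higher and 14.1% lower. The carcinoma keratins Krt8 and Krt18 were at 263.92 FPKM or more in each library, while the epithelial markers Cdh1 and Epcam did not exceed 0.02 and 0.11 FPKM.

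Of the 8 exporters, 3 rose after Tdo2high MFs CM: Abcc3, Abcc4 and Abcc1, all of the MRP family. None fell by limma, also at an unadjusted p under 0.05, where 4 were higher and 0 lower (9.68% and 14.1% of all tested genes). The ratios of mean FPKM were 1.30 for Abcc3, 1.27 for Abcc4 and 1.14 for Abcc1. The other 4 tested members, Abcb1b, Abcc5, Abcc10 and Abcg2, did not pass the test, and Abcb1a was below 1 FPKM in every library and was not tested. The 7 tested members had at least 1 FPKM in all 6 libraries, so none entered the test through 1 group alone. Their median change was 0.14, against -0.01 for all tested genes. In 4 of the 7 the lowest Tdo2high MFs CM library was above the highest Control CM library, an order that 11.6% of all tested genes showed. The opposite order, which 17.5% of tested genes showed, was seen in 0 of the 7. Because the members and the lists below were chosen with earlier results of these data known, comparisons with all tested genes are descriptive.

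**Figure D1:**
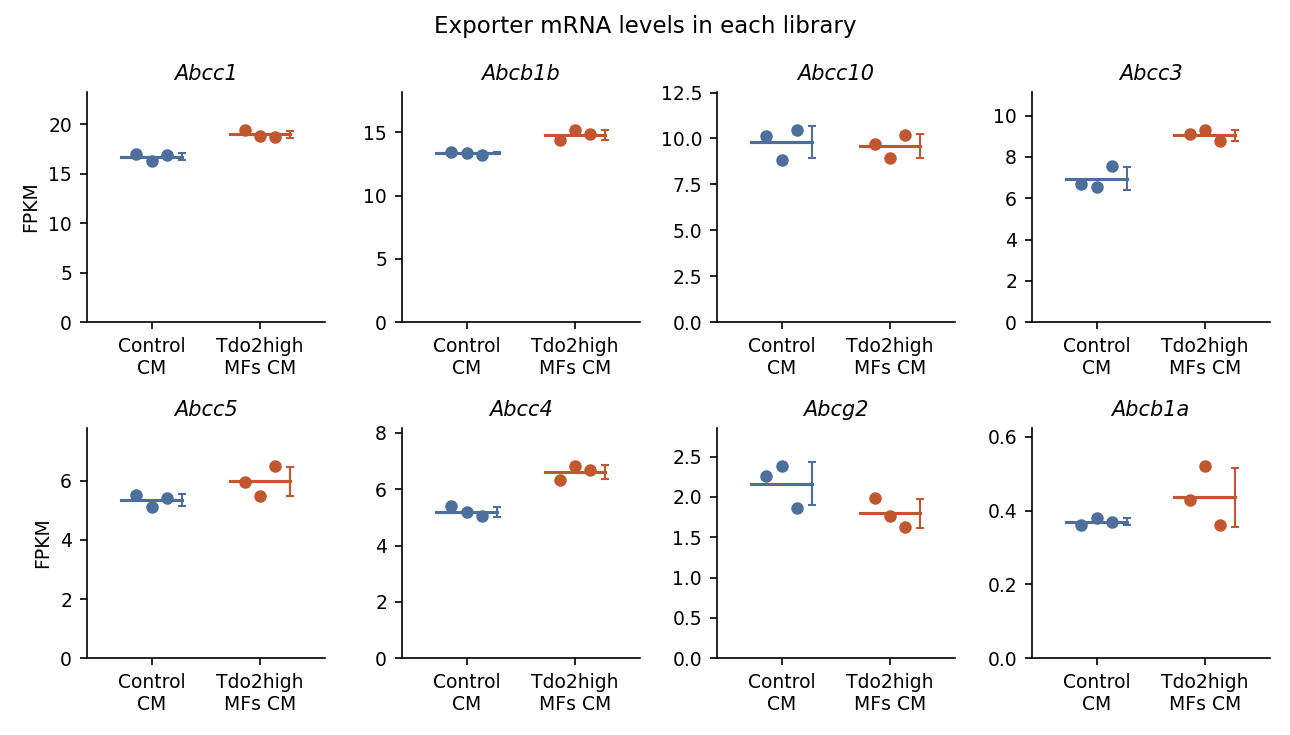
FPKM of each exporter (vertical axes from 0, scaled per gene) in the 3 Control CM libraries (blue) and the 3 Tdo2high MFs CM libraries (orange). Points are libraries, horizontal lines are means and bars are the SD; the groups are apart in Abcc1, Abcb1b, Abcc3 and Abcc4 and overlap in Abcc10, Abcc5, Abcg2 and Abcb1a.

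Abcc1, the gene of MRP1, which exports glutathione conjugates, oxidized glutathione and leukotriene C4, was the most abundant member with either medium. Its level was 16.98, 16.3 and 16.86 FPKM in the Control CM libraries and 19.39, 18.82 and 18.72 FPKM in the Tdo2high MFs CM libraries. Each library of the second group was above each of the first, and the gap between groups was wider than the spread within either. The change was 0.17 ± 0.04 (SE, n = 3 per group; adjusted p = 0.0192 by limma). That call ended without replicate 2 of Control CM (adjusted p = 0.0524 by limma), without Tdo2high MFs CM replicate 1 (0.0644) and without Tdo2high MFs CM replicate 2 (0.0527), with changes of 0.16 to 0.18 over the 6 fits that left out a library. On GRCm38 the gene lies on the forward strand of chromosome 16 from 14361453 to 14474878, with up to 31 exons in a coding transcript.

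Abcc3 encodes MRP3, which exports glucuronide conjugates and bile salts and, like MRP1, carries glutathione conjugates. It had the largest rise among the members. The Control CM libraries held 6.71, 6.57 and 7.57 FPKM, and the Tdo2high MFs CM libraries 9.11, 9.29 and 8.76 FPKM. The third Control CM library was the highest of its group, yet it stayed below every Tdo2high MFs CM library. The means were 6.95 ± 0.541 and 9.05 ± 0.270 FPKM (SD, n = 3 per group), and the change was 0.34 ± 0.06 (SE; adjusted p = 0.00708 by limma). The call held in all 16 alternative settings, with a change of 0.31 to 0.40. Abcc3 lies on the reverse strand of chromosome 11 from 94343295 to 94393017.

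Abcc4 encodes MRP4, an exporter of cyclic nucleotides, prostaglandins and urate. Its level was 5.39, 5.19 and 5.03 FPKM with Control CM and 6.32, 6.81 and 6.67 FPKM with Tdo2high MFs CM. The groups were apart by 0.93 FPKM at their nearest libraries, more than the range within either group. The change was 0.29 ± 0.05 (SE, n = 3 per group; adjusted p = 0.00932 by limma), and the call held in all 16 alternatives, at 0.27 to 0.34. The gene lies on the reverse strand of chromosome 14 from 118482692 to 118707856.

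Promoter windows of 300 bases, from 250 before to 50 after a RefSeq transcript start (GRCm38.p6), were held for 6 of the 8 members, not for Abcc1 and Abcc3. Abcc4, the member of the 3 that rose with an entry, has 2 such starts. On its reverse strand the gene begins at 118707856, before the first of these starts (118706219). The bases around that outer end were not searched, and which start is used was not measured. Both strands were searched for TGACNNNGC, the core of the antioxidant response element bound by NRF2, and for GCGTG, the core of the element bound by the aryl hydrocarbon receptor. The bases before the Abcc4 starts and around a match of Abcc10, which did not pass the test, are shown for comparison, with the matches in capitals.
Abcc4, first start, chr14:118706220-118706339, reverse strand: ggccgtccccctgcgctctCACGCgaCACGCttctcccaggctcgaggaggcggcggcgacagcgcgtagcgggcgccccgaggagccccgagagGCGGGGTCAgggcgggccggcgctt
Abcc4, second start, chr14:118676932-118676991, reverse strand: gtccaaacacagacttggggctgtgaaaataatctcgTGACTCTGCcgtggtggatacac
Abcc10, first start, chr17:46328194-46328253, reverse strand: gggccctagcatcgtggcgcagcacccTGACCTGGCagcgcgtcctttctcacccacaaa

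Before the first Abcc4 start the window held TGACNNNGC at positions -25 to -17 and GCGTG at -101 to -97 and at -94 to -90, all on the opposite strand, with no overlap between them. Before the second start TGACNNNGC stood at -23 to -15. In all, 5 of the 10 windows of the members held TGACNNNGC: both of Abcc4, both of Abcc10 and that of Abcb1a, at 27 to 35 after its start. GCGTG was in 2 of the 10, those of the first Abcc4 start and the third Abcg2 start. Over 32851 RefSeq windows of the same length the shares were 12.4% for TGACNNNGC and 32.4% for GCGTG. These are matches of letters. Binding was not measured, and the part of either motif in the changes was not tested.

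Abcc5 encodes MRP5, which, like MRP4, exports cyclic nucleotides. Its level was 5.52, 5.12 and 5.42 FPKM with Control CM and 5.97, 5.49 and 6.49 FPKM with Tdo2high MFs CM. The second library of the latter group fell inside the Control CM range. The change of 0.13 had a 95% interval of -0.0049 to 0.27 and did not pass (adjusted p = 0.225 by limma). Abcc5 shares chromosome 16 with Abcc1, where it lies on the reverse strand from 20331303 to 20426428.

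Abcc10 encodes MRP7, which transports lipophilic anticancer drugs such as taxanes. The libraries held 10.13, 8.81 and 10.44 FPKM with Control CM and 9.71, 8.91 and 10.19 FPKM with Tdo2high MFs CM. The groups covered nearly the same range, and the lowest library of each was its second. The change was -0.02 (95% interval -0.17 to 0.12; adjusted p = 0.863 by limma), an interval that excludes a rise as large as the estimate for Abcc3, Abcc4 or Abcc1. Abcc10 lies on the reverse strand of chromosome 17 from 46303220 to 46328031.

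P-glycoprotein is encoded by neighbouring genes on the forward strand of mouse chromosome 5, Abcb1a from 8567091 to 8748575 and Abcb1b from 8798147 to 8866314, with 49571 bases between them. Nearly all of their mRNA in these cells was assigned to Abcb1b. Abcb1b had 13.42, 13.4 and 13.25 FPKM with Control CM and 14.39, 15.16 and 14.84 FPKM with Tdo2high MFs CM. The groups were apart, and the Control CM libraries lay closer together than those of the other group. The change was 0.14 ± 0.04 (SE, n = 3 per group; 95% interval 0.05 to 0.22), and adjusted p = 0.0545 by limma missed the threshold. It passed in 3 of 16 alternatives: scaling by ratio medians (adjusted p = 0.0418 by limma), quantile normalization (0.0384) and a filter at a mean of 5 FPKM (0.0487). Without any 1 library the adjusted p ran from 0.0725 to 0.163.

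Abcb1a had 0.36, 0.38 and 0.37 FPKM with Control CM and 0.43, 0.52 and 0.36 FPKM with Tdo2high MFs CM. The third library of the latter group equalled the lowest of the former. In the fit with no filter on low values its change was 0.07 (adjusted p = 0.504 by limma). Abcb1b was 36.1 ± 1.04 times as abundant as Abcb1a with Control CM and 34.6 ± 6.12 times with Tdo2high MFs CM (SD of the ratio per library, n = 3). Of the 100-base windows of the longest coding Abcb1a transcript in GENCODE M21, 7.49% occur letter for letter in that of Abcb1b, and of the 50-base windows 15.5%. Reads from those stretches cannot be assigned by sequence, so both values, and above all the low one of Abcb1a, are uncertain.

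The bases just before a RefSeq start of each gene of the pair are shown for comparison. Neither stretch holds a match to either motif.
Abcb1b, chr5:8798027-8798146, forward strand: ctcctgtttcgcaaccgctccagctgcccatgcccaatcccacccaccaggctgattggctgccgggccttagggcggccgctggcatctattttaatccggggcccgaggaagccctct
Abcb1a, chr5:8566971-8567090, forward strand: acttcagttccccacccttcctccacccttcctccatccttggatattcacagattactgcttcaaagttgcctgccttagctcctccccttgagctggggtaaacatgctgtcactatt
The 120 bases of Abcb1b are 64.2% G or C and hold 7 CG pairs, whereas those of Abcb1a are 50% G or C and hold 0. Which start these cells use was not measured, and the part of these bases in the difference in level was not tested.

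Abcg2, whose product works as a dimer and exports urate, porphyrins and sulfated compounds, was the only tested member besides Abcc10 with an estimate below 0. Its level was 2.26, 2.38 and 1.86 FPKM with Control CM and 1.99, 1.77 and 1.63 FPKM with Tdo2high MFs CM. The third Control CM library lay inside the range of the other group. The change of -0.18 (95% interval -0.37 to 0.01) did not pass, at adjusted p = 0.243 by limma, and it ran from -0.25 to -0.13 over the alternatives. Abcg2 lies on the forward strand of chromosome 6 from 58584491 to 58692451.

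**Figure D2:**
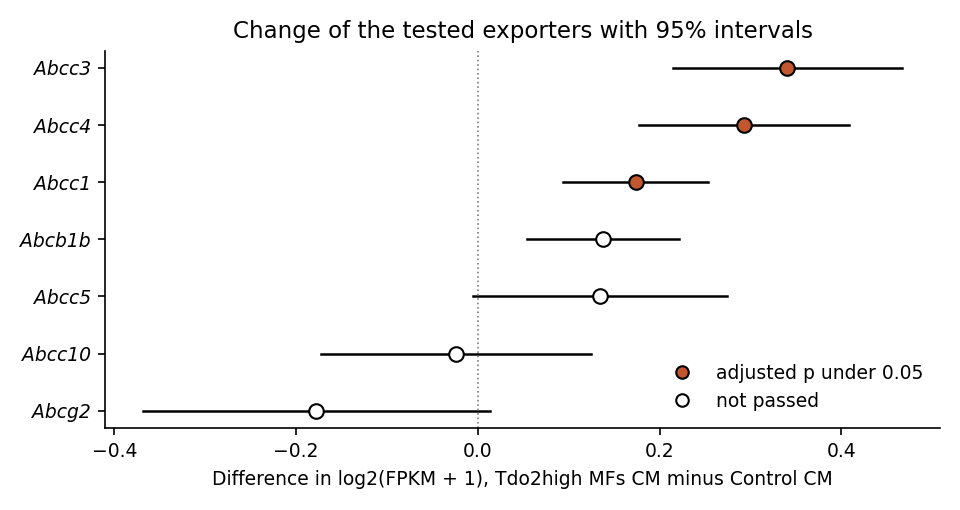
Difference in log2(FPKM + 1), Tdo2high MFs CM minus Control CM, of the 7 tested exporters (points) with 95% intervals of the limma fit (lines); filled points passed an adjusted p of 0.05. Abcc3, Abcc4 and Abcc1 are filled, the interval of Abcb1b lies above 0 without passing, and those of Abcc5, Abcc10 and Abcg2 include 0.

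Whether 1 member changed more than another was not tested, and the intervals of the 3 that rose overlap: 0.21 to 0.47 for Abcc3, 0.18 to 0.41 for Abcc4 and 0.09 to 0.25 for Abcc1. In FPKM, the order with Control CM was Abcc1, Abcb1b, Abcc10, Abcc3, Abcc5, Abcc4, Abcg2 and Abcb1a. Neighbours in that order did not overlap except Abcc5 and Abcc4, at 5.35 ± 0.208 and 5.20 ± 0.180 FPKM (SD, n = 3). With Tdo2high MFs CM, Abcc4 (6.60 ± 0.252 FPKM) stood before Abcc5 (mean 5.98 FPKM), again with overlapping ranges. Abcc3, below Abcc10 with Control CM, then overlapped it, at 9.05 ± 0.270 against 9.60 ± 0.647 FPKM.

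The summed level of the 8 members was 60.77, 58.15 and 60.8 FPKM with Control CM and 67.31, 66.77 and 67.66 FPKM with Tdo2high MFs CM. Every Tdo2high MFs CM library was above every Control CM library. Abcc1 made up 27.9% ± 0.154 and 28.2% ± 0.570 of that sum and Abcb1b 22.3% ± 0.655 and 22.0% ± 0.666 (SD, n = 3, Control CM first), so both kept nearly the same share. The share of Abcc3 was 11.6% ± 0.750 and 13.5% ± 0.487, and that of Abcc10 16.3% ± 1.05 and 14.3% ± 0.868.

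**Figure D3:**
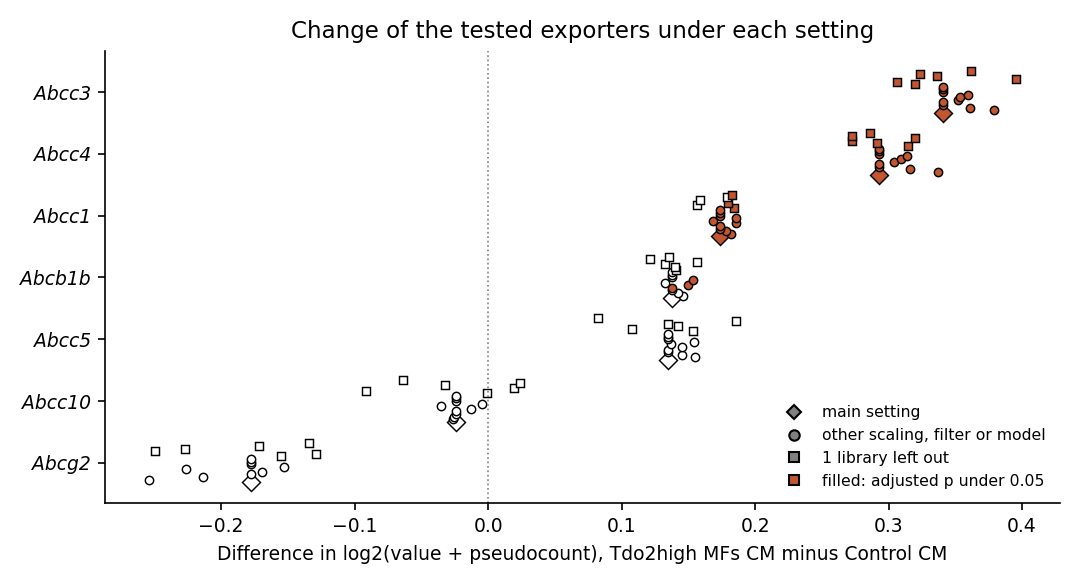
Difference in log2 level, Tdo2high MFs CM minus Control CM, of each tested exporter in the main setting (diamonds), with another scaling, filter, pseudocount or model (circles) and with 1 library left out (squares); filled symbols passed an adjusted p of 0.05. Abcc3 and Abcc4 are filled throughout, Abcc1 is open in 3 fits with a library left out, and Abcb1b is filled in 3 of 16 alternatives.

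By a fixed rule, the genes most like Abcc3, the called member with the smallest p, were sought among the other 10803 tested genes by Pearson's r of log2(FPKM + 1) over the 6 libraries, which takes in the difference between the groups. Among the 5 nearest were Siah1a, a ubiquitin ligase, Dhrs3, a retinaldehyde reductase, Mical2, an actin-oxidizing enzyme, and Lrg1, a secreted glycoprotein, with r from 0.990 to 0.994. The third Control CM library was the highest of its group in these 4, as in Abcc3, a likeness that the choice by r favours. Dhrs3 (adjusted p = 0.0593 by limma) and Mical2 (0.0908) were not called.

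Among the other ABC genes 45 were listed, 36 were in the table and 19 were tested. Of these, 2 rose and 1 fell by limma (3.35% and 4.06% of all tested genes). At an unadjusted p under 0.05 the counts were 4 and 2 (9.68% and 14.1%). The groups did not overlap in 5 that were higher and 4 that were lower (11.6% and 17.5%). The median change was -0.01, as for all tested genes. The remaining ABCC genes were hardly detected. Abcc2, which encodes the MRP of the bile canaliculus, and Abcc6 did not exceed 0.01 FPKM in any library, Abcc12 did not exceed 0.02 and Abcc9, a subunit of potassium channels, did not exceed 0.13. Abcb4, the phospholipid transporter next to Abcb1b, did not exceed 0.05 FPKM. None of the 4 other ABCG genes in the table reached 1 FPKM.

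The 2 that rose were lipid transporter genes of the ABCA family that lie side by side on chromosome 11. Abca8a had 4.57, 4.43 and 4.72 FPKM with Control CM and 5.85, 6.14 and 6.21 FPKM with Tdo2high MFs CM (change 0.34, adjusted p = 0.00423 by limma). Its paralog Abca8b went from 3.27 ± 0.172 to 4.14 ± 0.288 FPKM (SD, n = 3; change 0.27, adjusted p = 0.0347 by limma), which did not pass in 8 of 15 alternatives, every fit without 1 library included. Reads of these close paralogs may be split between them, which leaves both values uncertain. The gene that fell was Tap2, a peptide transporter of the endoplasmic reticulum, from 87.8 ± 1.48 to 78.7 ± 2.07 FPKM (change -0.16, adjusted p = 0.0128 by limma). The Tap2 call ended in 4 of 16 alternatives, with no intensity trend (0.0519) and without Control CM replicate 1 (0.0504), Tdo2high MFs CM replicate 2 (0.0505) or replicate 3 (0.0548). Of 3 tested ABCD peroxisomal transporters and 4 ABCE and ABCF ATPases, none was called, also at an unadjusted p under 0.05.

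MRP1 and its relatives act after conjugation, and some genes of the steps before export rose as well. Of all tested genes, 3.35% were called higher and 4.06% lower. Of 6 tested genes of glutathione supply, 4 rose and none fell, with a median change of 0.28: Gclc (0.73), Slc7a11 (0.56), Gclm (0.28) and Gsr (0.28). At an unadjusted p under 0.05 the counts were also 4 and 0. Of 16 tested glutathione transferases, which attach glutathione to a substrate, 7 rose and none fell, or 8 and 1 at an unadjusted p under 0.05. The other 9 were not called, and the median change of the 16 was 0.12. Gstt2 (-0.39) was called lower when replicate 2 of Control CM was left out (-0.51, adjusted p = 0.0404 by limma). The largest rises were those of Gstm1 (1.05), Mgst1 (0.70), Gsta4 (0.67) and Gstm7 (0.52); the Gstm genes are close paralogs whose reads may be split between them, and Gstm7 did not pass when all low genes were kept (adjusted p = 0.0652 by limma). Of the other conjugating enzymes 2 were tested, and Ugt1a6a was called higher, at 0.58, 0.57 and 0.21 FPKM with Control CM and 1.05, 1 and 1.81 FPKM with Tdo2high MFs CM. It met the filter only through the Tdo2high MFs CM libraries and so had to differ, and its call is no separate evidence of a change. It encodes a glucuronosyltransferase whose exons partly serve other genes of the locus, and the call ended in 7 of 15 alternatives.

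The steps after export and the other routes across the membrane gave no call. Of 5 tested genes of the mercapturate pathway, which trims exported glutathione conjugates, none passed by limma, also at an unadjusted p under 0.05, and Ggt1, whose product cleaves the glutamyl group of the conjugate at the cell surface, did not exceed 0.07 FPKM. The 4 tested non-ABC exporters and vault genes had 0 calls each way, also unadjusted. Mvp, the major vault protein, had 64.0 ± 2.12 and 66.1 ± 1.64 FPKM (change 0.05, 95% interval -0.03 to 0.12). Of 3 tested uptake carriers, led by the prostaglandin carrier Slco2a1 at 80.3 ± 3.69 and 79.7 ± 1.62 FPKM, none was called, also unadjusted.

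**Figure D4:**
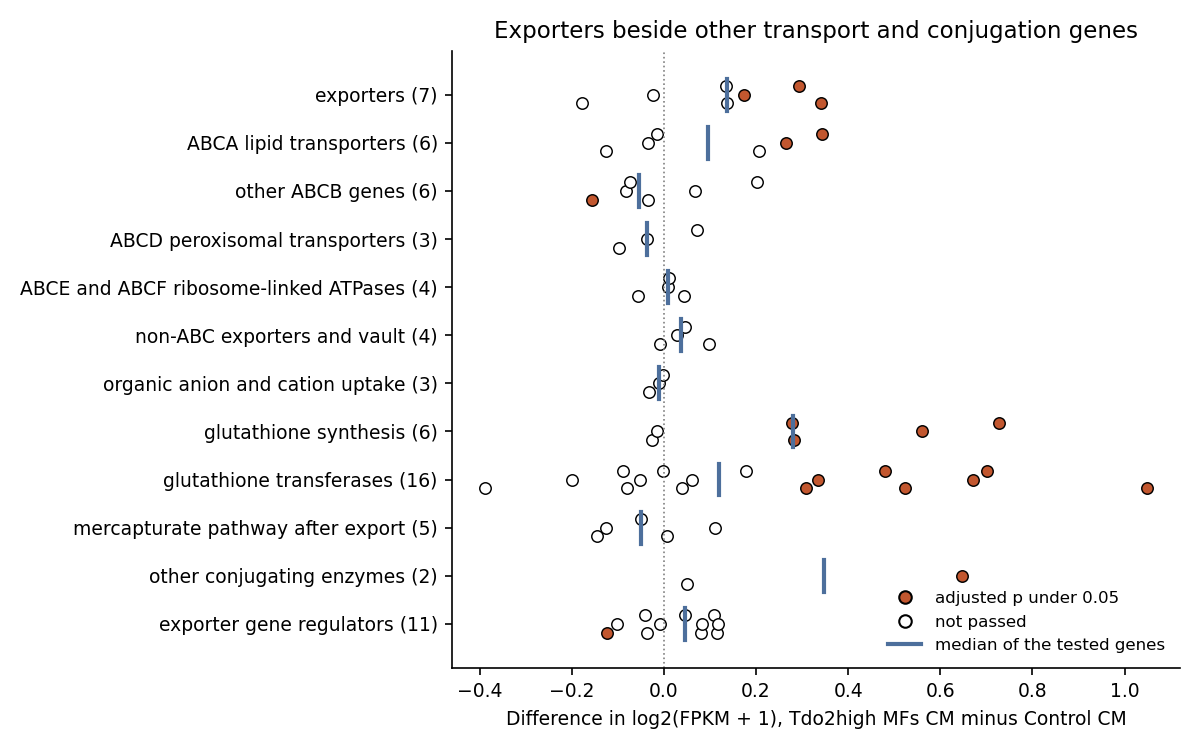
Difference in log2(FPKM + 1), Tdo2high MFs CM minus Control CM, of each tested gene (points) in the exporters and in the fixed lists (rows, number tested in parentheses); filled points passed an adjusted p of 0.05 and blue bars are medians. Filled points lie to the right of 0 for the exporters, the ABCA genes, glutathione supply, the transferases and the other conjugating enzymes (Ugt1a6a). They lie to the left for the other ABCB genes (Tap2) and the regulators (Nfe2l1). Ugt1a6a met the filter only through the Tdo2high MFs CM libraries. The export and uptake lists outside the ABC class hold none.

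Of 11 tested regulators known to act on exporter genes, none rose and 1 fell by limma, or 4 and 2 at an unadjusted p under 0.05 (9.68% and 14.1% of all tested genes). Nfe2l2, which encodes NRF2, a transcription factor that drives several ABCC genes, had 75.4 ± 3.02 and 79.9 ± 0.626 FPKM (change 0.08, adjusted p = 0.160 by limma). Its inhibitor Keap1 had 36.9 ± 0.532 and 39.1 ± 0.478 FPKM (0.08, adjusted p = 0.129 by limma). Ahr, the aryl hydrocarbon receptor gene, had 9.24 ± 0.195 and 10.05 ± 0.312 FPKM (0.11, adjusted p = 0.163 by limma). None of these 3 passed, though Nfe2l2 did when replicate 2 of Control CM was left out (adjusted p = 0.0491 by limma). These are mRNA levels, and the activity of the regulators was not measured. The gene that fell was Nfe2l1, an NRF2 relative, from 101 ± 2.13 to 92.6 ± 2.00 FPKM (-0.12, adjusted p = 0.0317 by limma), which did not pass in 10 of 16 alternatives, such as scaling by the median of ratios (0.0501) and every fit without 1 library. The xenobiotic receptor gene Nr1i3 did not exceed 0.09 FPKM, and Nr1i2 was not found by that symbol in the deposited table.

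Some markers of other cell types also changed, in both directions. Of 14 fibroblast markers 12 were in the table and 5 were tested: Npnt (0.46) and Pdgfra (0.17) rose, and Dcn (-0.48) and Fap (-0.31) fell, Fap in 9 of 15 alternatives. Their summed level was 114.5 to 119.18 FPKM with Control CM and 125.59 to 129.82 FPKM with Tdo2high MFs CM, while the collagen genes Col1a1 and Col1a2, which define fibroblasts, did not exceed 0.12 and 0.01 FPKM. Of 10 myeloid markers 7 were in the table and 3 were tested, and S100a8 rose (1.03); the sum was 10.55 to 12.04 and 15.68 to 16.84 FPKM, and the defining markers Lyz2, Csf1r and Itgam did not exceed 0.1 FPKM. Of 2 tested endothelial markers none was called, also unadjusted, and none of 5 lymphocyte markers in the table reached 1 FPKM. The part of these markers in the exporter changes was not tested.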

How the data were processed

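Polyadenylated RNA of 6 samples was sequenced, per the labels' protocols. The authors deposited 1 table of FPKM, per the file headers, rounded to 2 decimals, on GRCm38 per the submitters' processing notes; no source used here gives the aligner, quantifier or annotation. Divided by the smallest value of the same gene, 7441 values of at most 0.6 FPKM lay on average 0.25 from a whole number, as an even spread would, so reads were not recovered and no counting interval is given. FPKM is relative to the library total, so abundant genes shift all others.

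Samples were grouped by title. Genes with at least 1 FPKM in at least 3 libraries (10804; 5622 left out) were tested as log2(FPKM + 1) by limma 3.58.1 in R 4.3.3 (eBayes with trend, two-sided, no block), with Benjamini-Hochberg adjustment; the test was tried on simulated data. Positions come from RefSeq, strands and exons from GENCODE M21, both on that build. The members and lists were chosen with earlier results of these data known. Named were all members, up to 4 called genes per list with the largest change, 11 fixed genes that bear on export, and the 5 genes most like the called member with the smallest p; 2 genes so chosen are not reported here, and other genes were named after their values were seen. Tried besides were other scalings, filters, pseudocounts and variance models, a block on replicate number, and leaving out each library in turn. Figures used matplotlib 3.10.9.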

Additional observations from a re-analysis of the deposited data

How the results depend on the processing

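Abcc3 and Abcc4 passed in all 16 alternatives, and Abcc1 in all but the 3 fits without a library named above; between 2 and 4 members were called higher and 0 lower. Abcc10, never called, had changes of -0.092 to 0.024 without 1 library. All changed genes numbered 801 (362 higher, 439 lower), and 395 to 559 without 1 library (209 to 293 higher, 186 to 266 lower). No filter on low values gave 394 (199 and 195), and no intensity trend 525 (248 and 277). In the other lists 14 genes were higher and 2 lower. The 14 include Ugt1a6a, which met the filter only through the Tdo2high MFs CM libraries. The higher count was 10 with a mean of at least 5 FPKM, 11 with no filter, 12 with a replicate block and 12 or 13 without 1 library. The lower count was 1 with no filter, 1 with the median of ratios, 0 with no trend and 0 to 2 without 1 library. On the TPM scale the members summed to 136 with Control CM and 151 with Tdo2high MFs CM. The replicate numbers gave no sign of pairing: deviations of same-numbered libraries correlated at -0.02, -0.03 and 0.02 over genes. No library was closest to the one of its own number. The labels state no pairing, and these values cannot exclude one. A replicate block gave 622 changed genes and the same 3 members called, Abcc1, Abcc3 and Abcc4; with it the transferase Gstt2 was also called lower (adjusted p = 0.0308 by limma). The cause of these shifts was not tested. Differences smaller than the intervals given could not be seen with 3 libraries per group.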
